A study of Arabidopsis thaliana with 6 samples.

Results

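The serine carboxypeptidase-like (SCPL) genes form a large plant gene family, and 32 of its 51 genes in Arabidopsis thaliana were measured here in roots supplied with thiosulfate or with sulfate. Members were the array rows assigned to exactly 1 gene whose symbol is SCPL followed by a number, with the row of the highest mean taken where a gene had more than 1. They are 32 of the 16548 named genes in the test. The other 19 family genes, which are SCPL1 to SCPL14, SCPL17, SCPL19, SCPL24, SCPL40 and SCPL51, had no such row and were not analysed here. Whether rows with no gene listed hold them is not known. A gene is called measured here if it had a row assigned to exactly 1 gene. Among those 19 are SCPL8 under its name SNG1 and SCPL24 under its name BRS1.

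The thiosulfate plants were supplied with 150 µM sodium thiosulfate and the sulfate plants with 300 µM sodium sulfate, in a hydroponic MGRL medium from which sulfate had been removed in favour of chloride. All plants were Col-0 wild type, 8 weeks old and raised at short day length. Each of these groups holds 3 one-colour Affymetrix arrays of total root RNA, called biological replicates in their titles. Whether the replicates came from separate cultures is not stated, so the p-values speak only for the variation among these 6 arrays. The comparison addresses how root transcript levels differ when the sulfur source is thiosulfate, a partly reduced sulfur compound, in place of sulfate.

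SCPL proteins share the fold and the serine, aspartate and histidine catalytic residues of the carboxypeptidases that trim amino acids from the C-terminal end of peptides, and most enter the secretory pathway towards the vacuole or the cell exterior. Some have become acyltransferases that use glucose esters as acyl donors. SNG1 makes sinapoylmalate, a sunscreen compound of leaves, and SCPL19, also called SNG2, makes sinapoylcholine in seeds. BRS1 was found because its overexpression suppresses a weak mutant of the brassinosteroid receptor BRI1. Most of the members measured here have no substrate assigned in this account.

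Over the 16548 genes, arrays of the same group correlated at 0.980 to 0.983 and arrays of different groups at 0.974 to 0.982. The root label could not be checked with marker genes, because signals of different genes cannot be ranked as transcript amounts. Of 6 root hair markers, 2 were measured. EXPA7, a root hair expansin, ranged over 2.71 to 3.09 (log2) on thiosulfate arrays and 2.24 to 3.19 on sulfate arrays, and EXPA18 over 2.27 to 3.33 on thiosulfate arrays and 2.14 to 2.61 on sulfate arrays. Of 10 green tissue markers, the 2 measured were RCA, Rubisco activase, with 3.58 to 3.77 on thiosulfate arrays and 3.71 to 3.80 on sulfate arrays, and LHCB4.1, a light-harvesting protein, with 2.35 to 3.69 on thiosulfate arrays and 3.01 to 3.35 on sulfate arrays. Among 4 markers of dividing cells, the 2 measured were AUR1 and AUR2. AUR1 ranged over 3.96 to 4.47 on thiosulfate arrays and 3.83 to 4.75 on sulfate arrays. AUR2 ranged over 1.42 to 1.64 on thiosulfate arrays and 0.85 to 1.63 on sulfate arrays. No endodermis, xylem, phloem or seed marker on the lists had a row assigned to exactly 1 gene. In whole roots, fewer cells of a type and less RNA per cell cannot be told apart.

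No SCPL gene passed the test for a difference between thiosulfate and sulfate. At a limma adjusted p of 0.05 over all genes, 0 of 32 members were called, against 0.0121% of all genes tested (2 of 16548). The smallest adjusted p of a member was 0.33, for SCPL28. At an unadjusted limma p under 0.05, 7 of 32 members (21.9%) stood out, against 10.0% of all genes. Of the 7, 6 were higher in thiosulfate (SCPL28, SCPL45, SCPL35, SCPL20, SCPL31 and SCPL48), in a direction where 5.39% of all genes had such a p, and 1 was lower (SCPL23), where 4.64% did. This count depended on single arrays. It was 4 without thiosulfate replicate 1, where 7.17% of all genes had such a p, 3 without thiosulfate replicate 3 (10.1% of all genes) and 4 without sulfate replicate 1 (9.86%). With any other array left out it was 5 to 8, while the share of all genes was 7.9% to 10.6%. It was 4 when all 38408 rows entered the fit, of which 9.12% had such a p, and 0 in a test with no variance shared between genes (7.84% of all genes). After a further quantile normalization 5 members and 10.2% of all genes stood out. Of the 5, 4 were higher, while the split over all genes turned to 635 higher and 1050 lower, against 892 higher and 768 lower as deposited.

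The changes of the 32 members, each the thiosulfate mean minus the sulfate mean on the log2 scale, ran from -0.59 to 0.81, and none reached 2-fold. Their median was 0.05, beside -0.016 over all genes tested. It was 0.012 after quantile normalization (-0.047 over all genes), 0.0034 without thiosulfate replicate 2 and 0.0079 without thiosulfate replicate 3. The mean was higher in thiosulfate for 20 members and lower for 12, where 47.1% of all genes were higher. After a further quantile normalization the members split into 17 higher and 15 lower (41% of all genes higher), and after median centring into 19 and 13 (44.8% higher). A difference of at least 1.5-fold was listed for 4 members (12.5%), against 4.25% of all genes. Of these, 3 were higher (SCPL28, SCPL45 and SCPL35), as were 2.63% of all genes, and 1 was lower (SCPL23), as were 1.63%. After quantile normalization 1 member was higher and 1 lower by this measure, beside 4.05% of all genes in either direction. After median centring 2 members were higher and 1 lower, beside 4.27%. Without sulfate replicate 1 there were 2 higher and 0 lower, beside 6.11% of all genes. With any other array left out there were 2 or 3 higher and 0 to 2 lower, the 0 without thiosulfate replicate 1. The share of all genes in those fits was 4.02% to 6.32%. The 3 thiosulfate arrays did not overlap the 3 sulfate arrays in 6 members (18.8%), which is near the 14.7% of all genes with such a separation. These were SCPL28, SCPL35, SCPL42 and SCPL48 on the higher side, where 7.11% of all genes lay, and SCPL21 and SCPL23 on the lower side, where 7.57% did. In 25 members (78.1%) the 95% interval of the change stayed within 2-fold either way, a smaller share than the 92.7% of all genes.

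**Figure D1:**
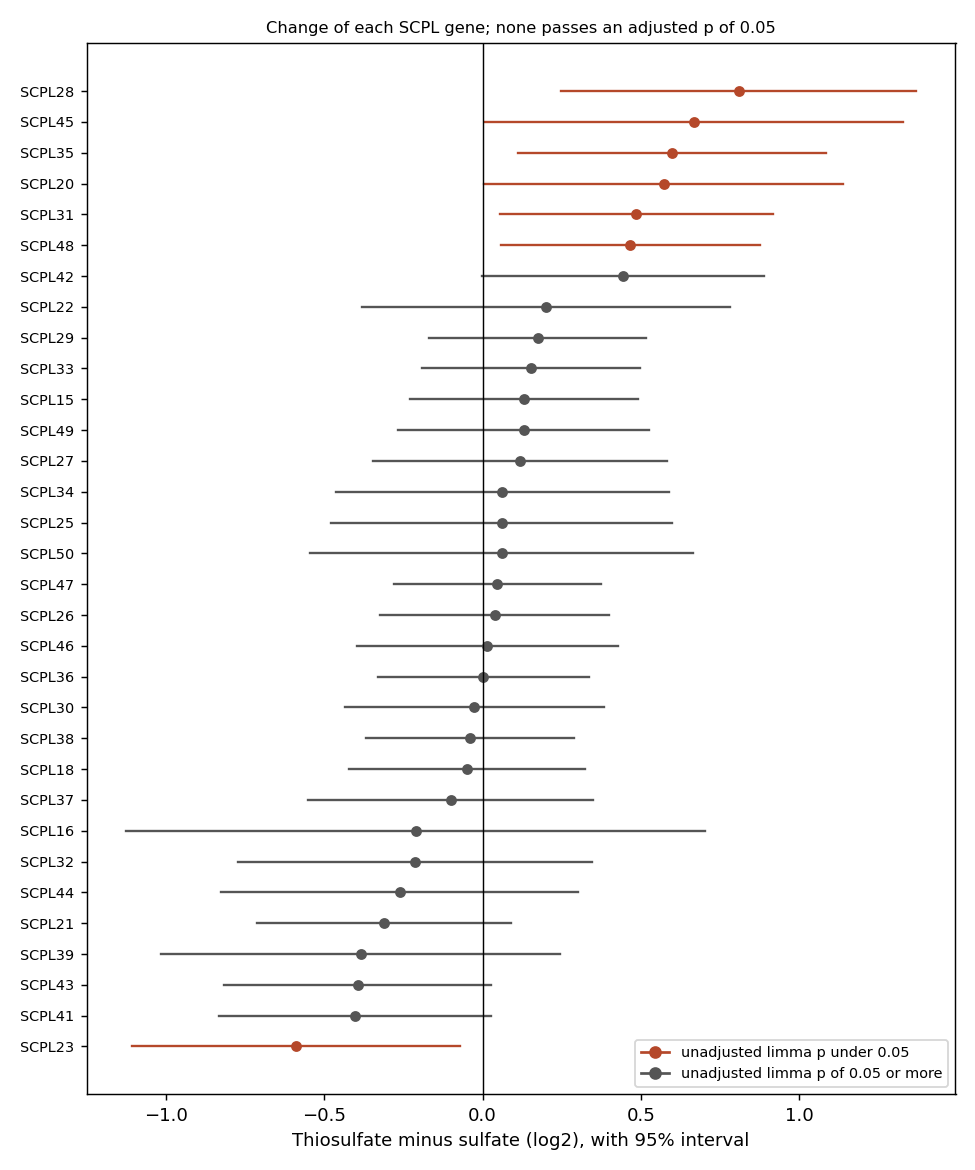
Log2 change (thiosulfate minus sulfate) of each of the 32 SCPL genes with its 95% interval from the limma fit, in order of change. The 7 coloured genes had an unadjusted p under 0.05, and none passed after adjustment over all genes; SCPL28 lies at the top with 0.81 and SCPL23 at the bottom with -0.59.

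The signal of an array row depends on its probes as well as on the transcript, so the levels of different genes are given as signals and not ranked as transcript amounts. Of the 32 members, 18 had dim signals, here those among the dimmest 40% of the genes tested, with means over 6 arrays from 0.63 to 1.73. The other 14 had means from 2.47 to 6.17. The median signal of the members was 1.64, beside 2.36 over all genes. No detection call was used, so the differences of dim members are differences of listed values, and a narrow interval there does not exclude a change in transcript level. Among the 14 members above the dim range 12 had a higher mean in thiosulfate (median change 0.13), as did 55.8% of all genes in that range. After a further quantile normalization 8 of these 14 did (median change 0.026), as did 42.3% of all genes in that range. Median centring left 12 of the 14 higher (median change 0.12), beside 53.8% of all genes in that range. Among the 18 dim members 8 had a higher mean in thiosulfate (median change -0.033), as did 34.0% of all dim genes. After quantile normalization 9 of the 18 did, with a median change of 0.0019. Of all dim genes 39.1% then did, with a median change of -0.051. Median centring left 7 of the 18 dim members higher, beside 31.2% of all dim genes.

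**Figure D2:**
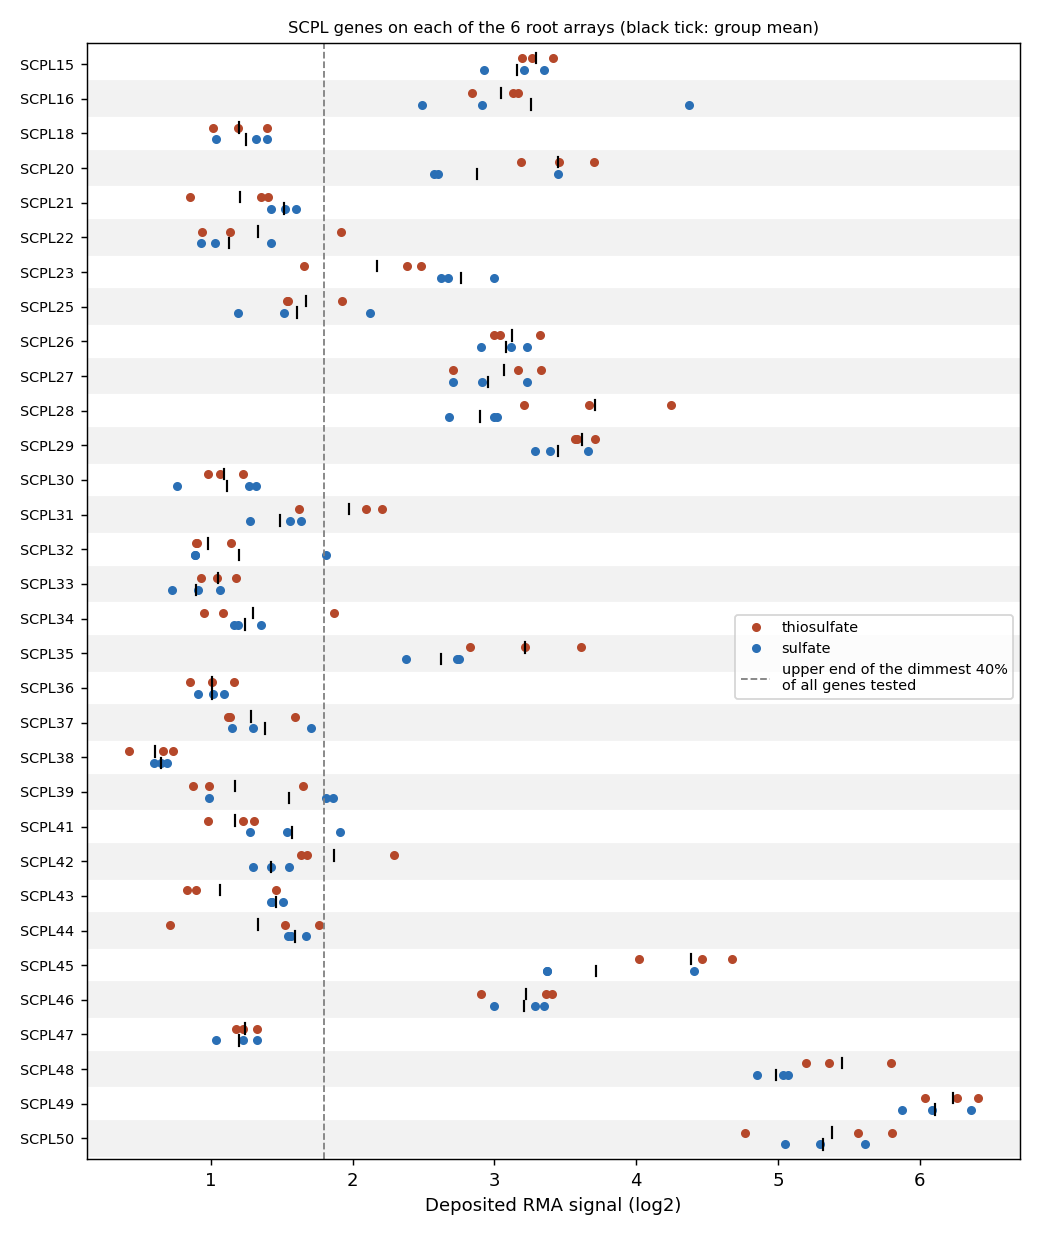
Deposited log2 signal of each SCPL gene on every array, thiosulfate above sulfate within each gene, with black ticks at the group means and genes in order of their number. Points left of the dashed line lie in the signal range of the dimmest 40% of all genes, where 18 of the 32 members have their mean, and in SCPL28, SCPL35, SCPL42 and SCPL48 all thiosulfate points lie right of all sulfate points.

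SCPL49 (AT3G10410) is listed by RefSeq as carboxypeptidase Y, a vacuolar peptidase. Its signal was 6.41, 6.26 and 6.04 on the thiosulfate arrays, against 6.36, 5.87 and 6.08 on the sulfate arrays. The groups overlapped, with a change of 0.13 (95% interval -0.27 to 0.53, limma adjusted p = 0.85), which was 0.015 without sulfate replicate 2. SCPL48 (AT3G45010) had 5.80, 5.36 and 5.20 in thiosulfate, against 4.85, 5.07 and 5.03 in sulfate. Every thiosulfate array of SCPL48 was above every sulfate array, with means of 5.45 ± 0.31 in thiosulfate and 4.98 ± 0.12 in sulfate (SD, n = 3 each), or 1.38-fold. The change of 0.47 had an SE of 0.18 and a limma adjusted p of 0.43, and it lay between 0.29 and 0.59 with 1 array left out, lowest without thiosulfate replicate 1.

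SCPL50 (AT1G15000) is the only member with 2 rows, and their signals lay far apart. The row used had 4.77, 5.56 and 5.81 in thiosulfate, against 5.05, 5.30 and 5.61 in sulfate, a change of 0.06 (95% interval -0.55 to 0.67, limma adjusted p = 0.96). Thiosulfate replicate 1 was the lowest of its 6 arrays and thiosulfate replicate 3 the highest. The other row of SCPL50 had 2.37, 2.05 and 1.50 in thiosulfate, against 1.73, 1.85 and 1.41 in sulfate, and a change of 0.31. Its 95% interval of -0.29 to 0.91 came from the fit on all 38408 rows. In that fit the row used had an interval of -0.64 to 0.76. In the other row thiosulfate replicate 1 was the highest array, so the rows ordered the thiosulfate arrays in opposite ways. Neither row separated the groups.

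The remaining members with signals above the dim range carry numbers from SCPL15 to SCPL46. SCPL28 (AT2G35770) had the largest change of the family, with 3.67, 4.24 and 3.21 in thiosulfate against 3.02, 2.68 and 2.99 in sulfate. All thiosulfate arrays lay above all sulfate arrays, but they spread widely, with 3.71 ± 0.52 in thiosulfate and 2.90 ± 0.19 in sulfate (SD, n = 3 each). The change of 0.81, or 1.75-fold, had an SE of 0.25, a 95% interval of 0.25 to 1.37 and a limma adjusted p of 0.33. With 1 array left out it ran from 0.54, without thiosulfate replicate 2, to 1.06, without thiosulfate replicate 3.

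SCPL35 (AT5G08260) had 3.21, 2.83 and 3.61 in thiosulfate, against 2.37, 2.74 and 2.75 in sulfate. The lowest thiosulfate array lay just above the highest sulfate array, and the change was 0.60 (SE 0.22, limma adjusted p = 0.41). With 1 array left out it ran from 0.40 to 0.79. SCPL45 (AT1G28110) had 4.67, 4.02 and 4.46 in thiosulfate, against 4.41, 3.37 and 3.37 in sulfate. Sulfate replicate 1 fell inside the thiosulfate range, and the change was 0.67 (SE 0.29, limma adjusted p = 0.50). It was 1.01 without that array, and 0.50 without sulfate replicate 2 and 0.49 without sulfate replicate 3. SCPL20 (AT4G12910) showed the same kind of spread, with 3.18, 3.70 and 3.46 in thiosulfate against 2.57, 2.60 and 3.45 in sulfate. Here sulfate replicate 3 lay in the thiosulfate range. The change for SCPL20 was 0.57 (SE 0.25, limma adjusted p = 0.50). It was 0.86 without that array, 0.42 without sulfate replicate 1, and 0.44 without sulfate replicate 2 or thiosulfate replicate 2.

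SCPL23 (AT2G24010) was the member with the largest change downward, with 1.66, 2.39 and 2.48 in thiosulfate against 2.99, 2.67 and 2.62 in sulfate. The groups did not overlap, at 2.17 ± 0.45 in thiosulfate and 2.76 ± 0.20 in sulfate (SD, n = 3 each), and thiosulfate replicate 1 was the lowest array by a wide margin. The change of -0.59 (SE 0.23, limma adjusted p = 0.44) was -0.33 without that array, the smallest size with any array left out.

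The other members with signals above the dim range differed little between the groups. SCPL29 (AT4G30810), SCPL27 (AT3G07990), SCPL26 (AT2G35780) and SCPL46 (AT2G33530) had changes of 0.17, 0.12, 0.04 and 0.01, with overlapping groups in each. SCPL26, SCPL27 and SCPL46 turned lower in thiosulfate after a further quantile normalization, at -0.087, -0.0058 and -0.11. For SCPL29, the most evenly measured of these in thiosulfate (3.62 ± 0.08 in thiosulfate, 3.44 ± 0.19 in sulfate, SD, n = 3 each), the 95% interval of the change reached from -0.17 to 0.52, and the change was 0.046 after quantile normalization.

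Of the members numbered among the acyltransferases, SCPL15, SCPL16 and SCPL18 were measured. SCPL15 (AT3G12240) and SCPL16 (AT3G12220) lie in a run of neighbouring genes with SCPL17, which is known for acylating glucosinolates in seeds. SCPL15 had 3.41, 3.20 and 3.27 in thiosulfate, against 3.35, 2.93 and 3.21 in sulfate, with a change of 0.13 (limma adjusted p = 0.83). This was 0.015 without sulfate replicate 2 and 0.0054 after quantile normalization. SCPL16 had 3.13, 2.84 and 3.16 in thiosulfate, against 2.91, 2.49 and 4.37 in sulfate. Sulfate replicate 3 stood far above the other 5 arrays of SCPL16, and the change of -0.21 (95% interval -1.13 to 0.70, limma adjusted p = 0.90) became 0.35 without it. SCPL18 (AT1G33540) was dim, with 1.02, 1.19 and 1.39 in thiosulfate against 1.40, 1.04 and 1.32 in sulfate and a change of -0.05.

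Among the dim members, SCPL31 (AT1G11080) and SCPL42 (AT5G42240) were listed higher in thiosulfate. SCPL31 had 2.21, 1.62 and 2.096 in thiosulfate, against 1.56, 1.64 and 1.27 in sulfate, a change of 0.49 (SE 0.19, limma adjusted p = 0.44) with 1 sulfate array just above the lowest thiosulfate array. SCPL42 had 1.63, 1.68 and 2.29 in thiosulfate, against 1.55, 1.29 and 1.43 in sulfate. The groups of SCPL42 did not overlap, and its change of 0.44 had an SE of 0.20 and a limma adjusted p of 0.50. The change was 0.23 without thiosulfate replicate 3.

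SCPL21 (AT3G25420) was the other dim member whose groups did not overlap, with 0.85, 1.40 and 1.35 in thiosulfate against 1.60, 1.43 and 1.52 in sulfate. Its change was -0.31 (SE 0.18, limma adjusted p = 0.60), and -0.14 without thiosulfate replicate 1, the lowest array. SCPL41, SCPL43 and SCPL39 had changes of -0.40, -0.39 and -0.39 with overlapping groups. With 1 array left out the change ran from -0.55 to -0.23 for SCPL41, from -0.59 to -0.28 for SCPL43 and from -0.67 to -0.23 for SCPL39. For SCPL43 the sulfate arrays lay close together at 1.46 ± 0.05, while the thiosulfate arrays spread at 1.06 ± 0.35 (SD, n = 3 each). The remaining 11 dim members, which are SCPL22, SCPL25, SCPL30, SCPL32, SCPL33, SCPL34, SCPL36, SCPL37, SCPL38, SCPL44 and SCPL47, had changes from -0.26 to 0.20. SCPL38 had the lowest mean of the family, at 0.61 in thiosulfate and 0.65 in sulfate.

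**Figure D3:**
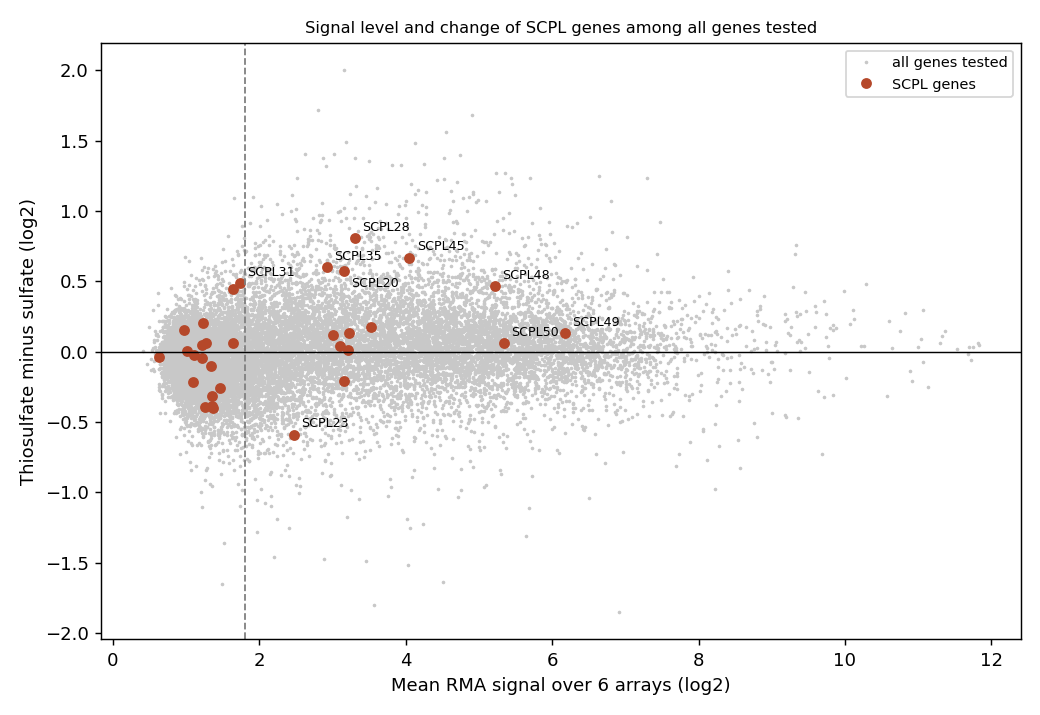
Mean log2 signal over the 6 arrays (horizontal) against the log2 change, thiosulfate minus sulfate (vertical), for the 16548 genes tested in grey and the 32 SCPL genes in red. Labelled are the members with an unadjusted limma p under 0.05 and SCPL49 and SCPL50. The dashed line marks the end of the dimmest 40% of genes. Right of it 12 of 14 members lie above 0, as do 55.8% of all genes there. After a further quantile normalization 8 of 14 members do, as do 42.3% of all genes there. After median centring 12 of 14 members do, as do 53.8% of all genes there.

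The spread between replicates of the members was larger in thiosulfate than that of genes at large. The median SD of a member was 0.27 on the thiosulfate arrays and 0.20 on the sulfate arrays, beside 0.20 on the thiosulfate and 0.18 on the sulfate arrays over all genes. Thiosulfate replicate 1 was the lowest of the 6 arrays in 9 of 32 members and the highest in 8. Thiosulfate replicate 3 was the lowest in 2 and the highest in 8, while sulfate replicate 3 was the lowest in 5 and the highest in 1.

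Many SCPL genes lie side by side on the chromosomes, and the changes of neighbours can be set side by side. In the RefSeq gene order, allowing at most 2 other protein-coding genes in between, 7 runs of neighbours lie among the 51 family genes. Of these runs, 5 hold 2 or more measured members (11 members in all). Family genes outside these runs have no such neighbour. SCPL22 and SCPL23 had changes of 0.20 and -0.59, SCPL28 and SCPL26 had 0.81 and 0.04, and SCPL41 and SCPL42 had -0.40 and 0.44. Over the 7 pairs within runs, the difference in change was tested with an exact two-sided permutation test over the arrays, in which the smallest possible p is 0.1. The differences were 0.79 for SCPL22 minus SCPL23, 0.77 for SCPL28 minus SCPL26 and -0.85 for SCPL41 minus SCPL42. Each had an exact permutation p of 0.1, the smallest the design allows, and a Benjamini-Hochberg adjusted p of 0.23. For SCPL22 minus SCPL23 the groups barely separated, with the lowest thiosulfate array at -1.2502 and the highest sulfate array at -1.2509. The other 4 pairs had differences between -0.34 and 0.39, with exact permutation p-values from 0.4 to 1. The 3 neighbours SCPL36, SCPL37 and SCPL39 had changes of 0.0018, -0.10 and -0.39. Neighbouring family genes can be similar in sequence, and whether their probes share signal was not tested.

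**Figure D4:**
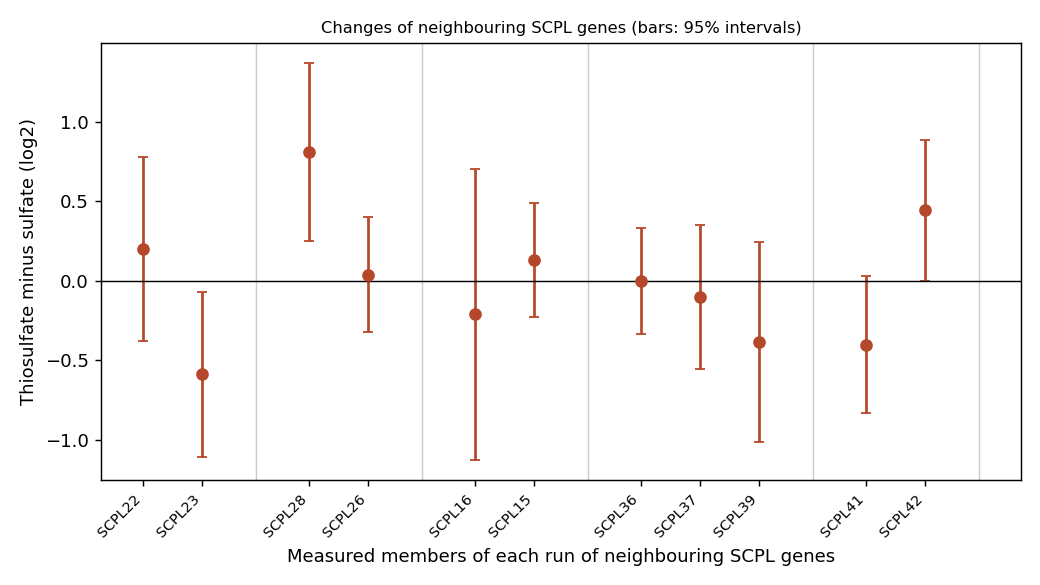
Log2 change (thiosulfate minus sulfate) with 95% interval for the 11 measured SCPL genes that have a measured neighbour of the family, with grey lines between the runs. SCPL23 and SCPL41 lie below 0 and their neighbours SCPL22 and SCPL42 above it, while the 95% intervals of SCPL22, SCPL41 and SCPL42 include 0.

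Genes of the pathways around the known SCPL acyltransferases are given beside the family. Of the list of sinapate ester and phenylpropanoid genes 8 were measured, 5 with a higher and 3 with a lower mean in thiosulfate, a median change of 0.19, and 0 passed by limma over all genes (2 of 8 at an unadjusted p under 0.05, as 10.0% of all genes were). UGT72E2 (AT5G66690), which glucosylates monolignols, had 6.52, 6.44 and 6.29 in thiosulfate, against 6.06, 5.20 and 5.23 in sulfate. Its groups did not overlap, with a change of 0.92 (SE 0.23, limma adjusted p = 0.31). UGT72E3 (AT5G26310), of the same enzyme group, was dim, with a change of 0.58 (SE 0.18, limma adjusted p = 0.33) and groups that did not overlap. UGT72E1, also on the list, had means of 6.13 in thiosulfate and 5.98 in sulfate. Its groups overlapped, with a change of 0.15 (95% interval -0.53 to 0.83, limma adjusted p = 0.90). UGT84A4 and UGT84A3, further glucosyltransferases on the list, were both dim, with changes of 0.69 (95% interval -0.11 to 1.50) and -0.30 (-0.77 to 0.17). Whether they supply an acyl donor in these roots was not tested.

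Of the list of glucose ester and anthocyanin genes 5 were measured, 2 higher and 3 lower, with a median change of -0.14, and 0 passed by limma at either the adjusted or the unadjusted threshold of 0.05. The smallest p was that of UGT78D2, an anthocyanidin and flavonol glucosyltransferase, with a change of -0.25 (limma adjusted p = 0.67). UF3GT (AT5G54060), also dim, and UGT74F1, which forms glucose conjugates of salicylic acid, had changes of -0.19 and 0.16. Of the list of other secreted and vacuolar proteases 4 were measured, 2 higher and 2 lower, with a median change of -0.029. None of the 4 passed by limma over all genes, and 2 had an unadjusted p under 0.05, as did 10.0% of all genes. GAMMA-VPE (AT4G32940), a vacuolar processing enzyme, had 6.94, 7.06 and 6.58 in thiosulfate, against 7.39, 7.32 and 7.26 in sulfate, a change of -0.46 (SE 0.16, limma adjusted p = 0.40) without overlap. ARA12 (AT5G67360), a subtilase, had a change of 0.54 (limma adjusted p = 0.41). ALPHA-VPE, another vacuolar processing enzyme, was dim, with a change of -0.19 (limma adjusted p = 0.70). BETA-VPE, also a vacuolar processing enzyme, had a change of 0.13 (limma adjusted p = 0.81) with overlapping groups. None of the 3 genes on the list of other serine carboxypeptidase genes had a row assigned to exactly 1 gene.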

How the data were processed

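The authors deposited log2 values, which per the submitters' processing notes come from RMA in Transcriptome Analysis Console 4.0. RMA corrects background, normalizes quantiles over arrays and summarises the probes of a row. The array's genome build is not given in the sources used here, nor are scan dates or slides, so no batch was tested and no coordinates are given. Precision is limited by the number of arrays. Of 38408 rows, 16722 had 1 gene in the platform's probe table, 759 had several and 20927 were not listed. Symbols were updated by gene identifier from a RefSeq table of TAIR10.1, which matched 16574 rows. The row with the highest mean was kept for each of 16548 genes.

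Thiosulfate was compared with sulfate by limma 3.58.1 in R 4.3.3 (group term, empirical Bayes without trend, two-sided). P-values were adjusted by Benjamini-Hochberg over all genes, with a threshold of 0.05. The fit was tested on simulated data. Named with values on each array were the 5 members with the smallest p, those whose groups did not overlap, those with several rows, and those of known function. SCPL45, SCPL20, SCPL49, SCPL15, SCPL16 and SCPL18 were added after their values were seen. Lists were written from textbook knowledge, and the 3 members with the smallest p were named. UGT84A3 was named as a further glucosyltransferase of its list. UGT72E1 and BETA-VPE were added after their values were seen. The members and lists were chosen with earlier results of these data known. A planned comparison of protein sequences was not made. Replicate numbers, shared by both groups, were not taken to pair arrays: the deviations from the group means of arrays with a common number had correlations of 0.056, -0.025 and -0.032. Plots used Python 3.11.15 with matplotlib 3.10.9, and tables pandas 2.3.3.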

Additional observations from a re-analysis of the deposited data

How the results depend on the processing

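No SCPL gene was called at an adjusted p of 0.05 in any of the 16 alternative fits, in which the smallest limma adjusted p of a member was 0.27. At an unadjusted p under 0.05, 7 members and 1660 genes stood out. The 2 genes called over all genes became 1 without the dimmest 50% of genes, and 0 when every row was tested (3502 rows at an unadjusted p under 0.05) or with no shared variance (1297 genes). A replicate block in the limma fit left 0 genes past the threshold (1717 at an unadjusted p under 0.05, 9 members among them). With 1 array left out, 0 to 2 genes passed. The median change of the members was 0.13 without the dimmest 50% of genes, which leaves 14 members, and 0.012 after quantile normalization, where the median of all genes was -0.047. It ran from 0.0034 to 0.069 with 1 array left out, lowest without thiosulfate replicate 2. For 16 members the direction held in all 16 alternatives or those that kept the gene, among them SCPL20, SCPL23, SCPL28, SCPL31, SCPL35, SCPL42, SCPL45 and SCPL48. The other 16 turned in at least 1, and none of these was called. After quantile normalization the changes were -0.087 for SCPL26, -0.0058 for SCPL27, 0.018 for SCPL30, -0.11 for SCPL46 and -0.018 for SCPL50, and after median centring -0.012 for SCPL36. With 1 array left out the change ran from -0.60 to 0.35 for SCPL16, -0.16 to 0.043 for SCPL18, -0.093 to 0.40 for SCPL22, -0.15 to 0.32 for SCPL25, -0.062 to 0.11 for SCPL26, -0.013 to 0.30 for SCPL27, -0.20 to 0.075 for SCPL30, -0.37 to 0.093 for SCPL32, -0.22 to 0.24 for SCPL34, -0.077 to 0.081 for SCPL36, -0.26 to 0.060 for SCPL37, -0.10 to 0.050 for SCPL38, -0.48 to 0.050 for SCPL44, -0.092 to 0.17 for SCPL46, -0.032 to 0.11 for SCPL47 and -0.15 to 0.37 for SCPL50. The cause of these moves was not tested. Dim signals limit 18 of the 32 members, for which no background bound was used.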
